A study of Rattus norvegicus with 6 samples.

Results

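The 10 genes described here mark microglia and macrophages: *Aif1*, *Cx3cr1*, *P2ry12*, *Tmem119*, *Csf1r*, *Itgam*, *Cd68*, *Trem2*, *Tyrobp* and *Irf8*. They were found by gene symbol in the deposited table and are 10 of its 22050 genes. All 10 passed edgeR's filter on low counts, which kept 14426 genes. RNA-seq of spinal cord had given 3 libraries of Sham rats and 3 of rats with spared nerve injury neuropathic pain (SNI-NP). The labels number the libraries of each group as replicates 1 to 3 and do not say how many rats gave each library. In spared nerve injury, branches of the sciatic nerve are cut and the sural branch is left intact. By the study's methods the rats were young adult Sprague–Dawley males, and the Sham rats received a sham operation as the control. The time between surgery and tissue collection for these libraries, the level of the cord and the side were not given in the sources used here. Nothing in the labels says more of the source of each library, so p-values measure the spread between these 6 libraries.

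Microglia are the resident macrophages of the brain and spinal cord. They survive on signals through the receptor CSF1R, sample their surroundings with processes guided by the purine receptor P2RY12, and read the neuronal chemokine fractalkine through CX3CR1. After injury to a peripheral nerve, microglia of the dorsal horn are known to divide and to change their expression of many of these genes. Macrophages of the meninges, of blood vessels and of the blood share most of the 10 genes, with *P2ry12* and *Tmem119* the most restricted to microglia.

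Between the groups, none of the 10 genes passed the test. Under the quasi-likelihood test of edgeR, adjusted over all genes by the Benjamini-Hochberg method, 0 of 10 had an adjusted p under 0.05, where 0% of the 14426 genes did. At an unadjusted p under 0.05 by the same test there were again 0 of 10, against 10.8% of all genes tested. The log2 fold changes of SNI-NP over Sham ran from -0.42 for *P2ry12* to 0.27 for *Trem2*, 6 of them positive and 4 negative. Their median was 0.039, and that of all genes tested was 0.0057. For 8 of the 10 genes the 95% interval lay within a 2-fold change in either direction, and the exceptions were *Cd68* and *P2ry12*. In bulk tissue, fewer cells of a type and less RNA per cell cannot be told apart.

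**Figure D1:**
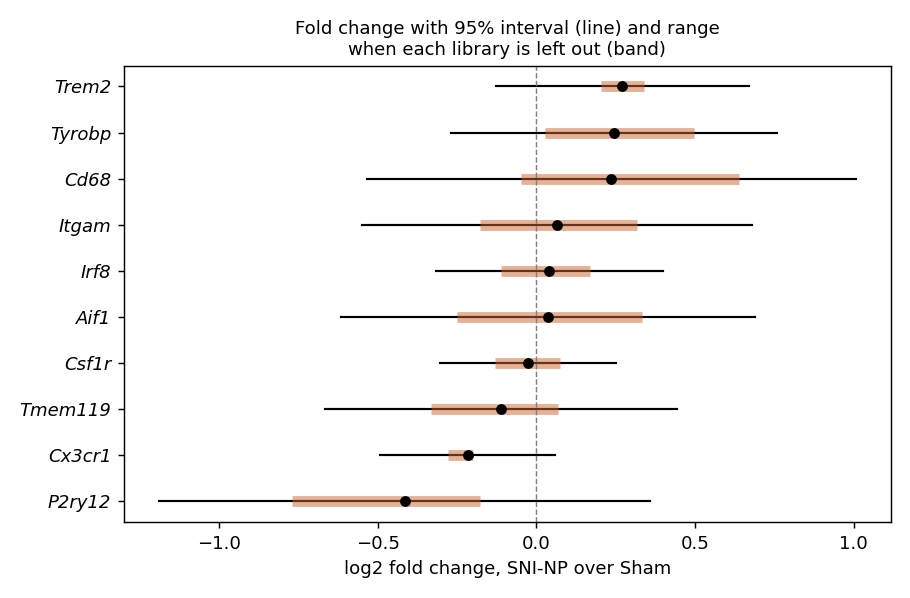
Log2 fold change of SNI-NP over Sham (x axis) for each of the 10 genes (y axis), with the edgeR estimate as a point, its 95% interval as a black line and the range of estimates when each of the 6 libraries was left out as an orange band. All 10 intervals cross 0, and the bands of *Trem2*, *Tyrobp*, *Cx3cr1* and *P2ry12* stay on one side of it.

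The libraries held between 16670760 and 18151156 estimated counts, and a gene with a count of 0 could be at no more than 0.165 to 0.18 CPM, depending on the library and for counting error only. A CPM value is a count scaled to the size of its library, and the CPM of genes below also carry TMM factors. Pearson correlations of log2 CPM across genes between libraries were from 0.9495 to 0.9756, and no pair was identical. Markers of oligodendrocytes, astrocytes and neurons were present. *Mbp*, a myelin gene, was at 25760 to 34300 CPM. *Gfap*, an astrocyte filament gene, was at 332.3 to 862.9 CPM, and *Snap25*, a synaptic gene, at 129.6 to 278.1 CPM. The summed level of 7 neuron genes was 637.4, 348 and 574.4 CPM in Sham and 386.3, 362 and 343.5 CPM in SNI-NP libraries. Genes of dorsal root ganglion sensory neurons were also present, and the share of ganglion tissue in each library was not tested. The summed level of 8 such genes was 637.7, 1132 and 1349 CPM in the Sham libraries and 218, 1968 and 1382 CPM in the SNI-NP libraries, with SNI-NP replicate 1 far below the others. Without that library, edgeR called 222 genes, none of them among the 10, in place of 0.

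Compared per transcript length, the 10 genes covered a wide range of levels. The deposited FPKM (counts scaled by transcript length and library total), averaged over the 6 libraries, was highest for *Csf1r* at 57.5 FPKM, above 90.5% of the genes tested. *Tyrobp* at 34.2 FPKM and *Aif1* at 31.8 FPKM came next. *Cd68* followed at 14.3, *Cx3cr1* at 12.6, *Irf8* at 9.46, *Itgam* at 7.45, *Trem2* at 6.74 and *Tmem119* at 4.97 FPKM. *P2ry12* was lowest at 2.65 FPKM, above 24.4% of the genes tested. In this order the library ranges of neighbours separated at the top, between *Csf1r* and *Tyrobp*, and at the bottom, between *Tmem119* and *P2ry12*, and the ranges of all other neighbours overlapped.

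**Figure D2:**
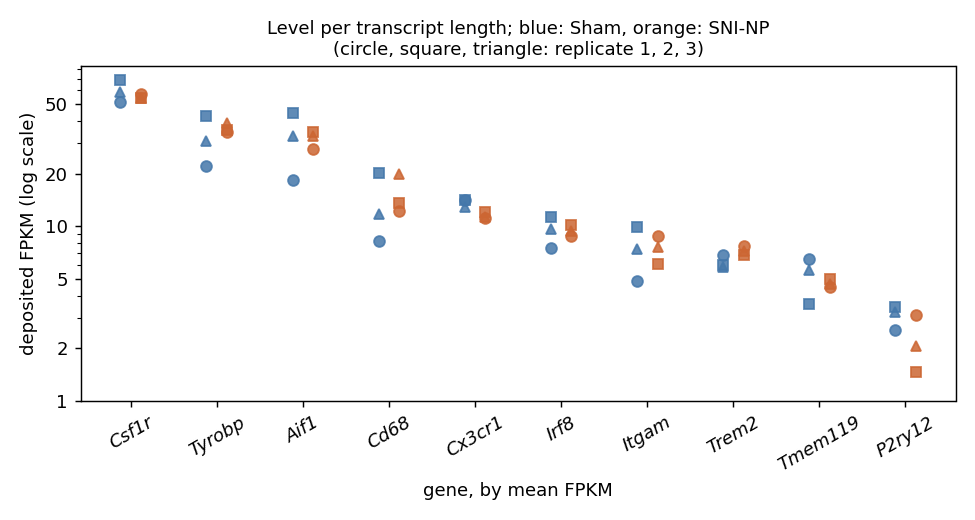
Deposited FPKM on a log scale (y axis) of the 10 genes, ordered by their mean (x axis), in each Sham library (blue) and SNI-NP library (orange), with a circle, square or triangle for replicate 1, 2 or 3. *Csf1r* lies between 51.2 and 68.7 FPKM and *P2ry12* between 1.47 and 3.46 FPKM, both apart from their neighbours.

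Promoter sequences are shown for 3 of the genes, since macrophage genes are known to carry short purine-rich sites for the myeloid factor PU.1 close to their start. Of the 10 genes, 6 had an entry in the RefSeq promoter table of the rat build GRCr8 (*Cx3cr1*, *Csf1r*, *Itgam*, *Cd68*, *Trem2* and *Irf8*). This build is not the one the counts were made on. *Itgam* and *Cd68* are shown as the genes among these 6 with the widest spread between Sham libraries, and *Irf8* as the transcription factor of the group. Each sequence is the 250 bases before the annotated start, 5′ to 3′ on the strand of the gene, and capitals mark GAGGAA, the core of the PU.1 site, or its reverse complement TTCCTC. *Itgam* lies on the plus strand at chr1:192089342-192089591, *Cd68* on the minus strand at chr10:54882442-54882691 and *Irf8* on the plus strand at chr19:65699034-65699283.
Itgam: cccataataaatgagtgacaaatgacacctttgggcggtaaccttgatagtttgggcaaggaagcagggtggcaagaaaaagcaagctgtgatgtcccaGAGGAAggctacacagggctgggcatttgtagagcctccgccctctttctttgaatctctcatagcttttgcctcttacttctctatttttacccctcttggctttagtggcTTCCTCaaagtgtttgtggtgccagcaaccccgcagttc
Cd68: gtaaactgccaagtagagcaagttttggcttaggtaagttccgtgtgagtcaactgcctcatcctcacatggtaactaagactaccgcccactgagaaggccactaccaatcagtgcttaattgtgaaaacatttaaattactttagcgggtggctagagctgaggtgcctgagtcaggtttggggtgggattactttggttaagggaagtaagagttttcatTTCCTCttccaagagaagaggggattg
Irf8: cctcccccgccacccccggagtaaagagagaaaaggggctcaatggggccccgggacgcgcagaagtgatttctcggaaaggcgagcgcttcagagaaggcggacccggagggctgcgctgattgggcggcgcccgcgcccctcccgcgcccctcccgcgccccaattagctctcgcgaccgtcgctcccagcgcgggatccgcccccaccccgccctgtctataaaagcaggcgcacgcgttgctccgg
The *Itgam* window held GAGGAA at 151 bases before the start and its reverse complement at 39 bases before it, the *Cd68* window held the reverse complement at 27 bases before it, and the *Irf8* window held neither. On either strand, GAGGAA was found in 4 of the 6 windows and in 23.3% of 33469 promoters of the same length. The longer form GAGGAAGT was found in 0 of the 6 and in 2.04% of all promoters. The ETS-IRF composite element, a joint site for PU.1 and an IRF factor, was matched in 1 of the 6 windows (*Cd68*, where it overlaps the GAGGAA match) and in 2.48% of all promoters. TATAAA, the TATA box, occurred in 1 of the 6 (*Irf8*, at 29 bases before the start) and in 12.9% of all promoters. These matches describe the letters and were not tested for binding.

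Among the receptor genes of microglia, *Cx3cr1* (ENSRNOG00000018509), the fractalkine receptor, was at 18.9, 18.0 and 17.1 CPM in the Sham libraries and at 15.5, 15.8 and 15.1 CPM in the SNI-NP libraries. Every SNI-NP library lay below every Sham library, and both groups were tight. It was the single gene of the 10 whose groups did not overlap, where 18.5% of all genes tested had groups without overlap, 8.15% with SNI-NP lower and 10.4% with SNI-NP higher. The Sham mean was 18.0 ± 0.869 CPM and the SNI-NP mean 15.5 ± 0.381 CPM (SD, n = 3 each). The log2 fold change was -0.22 (SE 0.12), a fold of 0.861 with a 95% interval of 0.711 to 1.04, and edgeR gave an adjusted p of 0.52. With 3 libraries in each group, the smallest two-sided p that an exact permutation test allows is 0.1. On GRCr8 the span of *Cx3cr1* overlaps that of *LOC134480114*, which has no row by that symbol in the table. Exons were not compared, and whether the pair shares reads was not tested.

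*P2ry12* (ENSRNOG00000013902), the purine receptor by which microglial processes find ADP, had the fewest reads of the 10, with 53, 74 and 69 counts in Sham and 71, 33 and 45 counts in SNI-NP libraries. These were levels of 3.18, 4.17 and 4.02 CPM in Sham and 4.08, 1.83 and 2.61 CPM in SNI-NP libraries. SNI-NP replicate 1 sat among the Sham values, while the other two SNI-NP libraries lay below all of them. The log2 fold change was -0.42 (SE 0.33), and the 95% interval of the fold, 0.438 to 1.28, was among the widest of the 10 (edgeR adjusted p = 0.646). Leaving out SNI-NP replicate 1 gave -0.77, past an unadjusted p of 0.05 but with an edgeR adjusted p of 0.34, and leaving out SNI-NP replicate 2 gave -0.18. On GRCr8, *P2ry12* overlaps *Med12l*, a gene of the Mediator complex family, whose estimated counts were 219, 166 and 215 in Sham and 149, 157 and 107 in SNI-NP libraries (log2 fold change -0.57, past an unadjusted p of 0.05 by edgeR). The overlap is of whole gene spans, and exons were not compared. The use of strand in counting was not given in the sources used here, and whether the pair shares reads was not tested.

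*Tmem119* (ENSRNOG00000000700), a membrane protein gene used to mark resident microglia, was at 14.0, 7.49 and 12.2 CPM in Sham and at 10.1, 10.7 and 10.3 CPM in SNI-NP libraries. The SNI-NP values fell close together, inside the range of the Sham values. Their log2 fold change was -0.11 (SE 0.24; edgeR adjusted p = 0.881).

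*Csf1r* (ENSRNOG00000018414), the receptor kinase for the survival factors CSF1 and IL-34, was the most abundant of the 10. It was at 167, 215 and 188 CPM in Sham and at 196, 179 and 184 CPM in SNI-NP libraries. All 3 SNI-NP values lay between the lowest and the highest Sham value. The Sham mean was 190 ± 24.1 CPM and the SNI-NP mean 187 ± 8.81 CPM (SD, n = 3 each), a log2 fold change of -0.026 (SE 0.12). The 95% interval of the fold was 0.81 to 1.19 (edgeR adjusted p = 0.951).

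Of the genes of cell shape, adhesion and lysosomes, *Aif1* (ENSRNOG00000000853) encodes IBA1, the actin-binding protein stained to show microglia. It was at 12.01, 27.66 and 21.25 CPM in Sham and at 18.75, 22.27 and 21.51 CPM in SNI-NP libraries. The Sham libraries alone spanned a 2.3-fold range, and all SNI-NP values lay inside it. The log2 fold change was 0.037 (SE 0.28; edgeR adjusted p = 0.971), with a 95% interval of the fold of 0.652 to 1.61.

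*Itgam* (ENSRNOG00000019728), the alpha chain of complement receptor 3 known as CD11b, was at 17.1, 33.6 and 25.8 CPM in Sham and at 32.2, 21.0 and 26.9 CPM in SNI-NP libraries. Its SNI-NP values were again inside the Sham range, and the log2 fold change was 0.065 (SE 0.26; edgeR adjusted p = 0.945). *Cd68* (ENSRNOG00000037563), a lysosomal membrane glycoprotein that is plentiful in phagocytic cells, was at 10.2, 24.1 and 14.6 CPM in Sham and at 15.8, 16.7 and 25.2 CPM in SNI-NP libraries. One library in each group, Sham replicate 2 and SNI-NP replicate 3, stood above the other four. The log2 fold change of *Cd68* was 0.24 (SE 0.33; edgeR adjusted p = 0.805), and its 95% interval reached from 0.691 to a fold of 2.01.

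*Trem2* (ENSRNOG00000013578), a receptor for lipids and apolipoproteins, was at 7.92, 6.65 and 6.69 CPM in Sham and at 9.32, 7.89 and 8.46 CPM in SNI-NP libraries. The groups met at 1 pair, as Sham replicate 1 was just above SNI-NP replicate 2. It had the largest positive log2 fold change of the 10, 0.27 (SE 0.17), with a 95% interval of the fold of 0.916 to 1.59 (edgeR adjusted p = 0.563). *Tyrobp* (ENSRNOG00000020845) encodes DAP12, the adaptor that carries the signal of TREM2 into the cell. It was at 13.3, 24.8 and 18.5 CPM in Sham and at 21.9, 21.3 and 23.9 CPM in SNI-NP libraries. Sham replicate 2 was above and the other Sham libraries were below all SNI-NP values. The log2 fold change was 0.24 (SE 0.22; edgeR adjusted p = 0.686). Without Sham replicate 2 it was 0.50, past an unadjusted p of 0.05 but with an edgeR adjusted p of 0.298, and without Sham replicate 1 it was 0.026.

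*Irf8* (ENSRNOG00000017869), a transcription factor that macrophages need to form and that microglia use when they react, was at 21.5, 31.0 and 27.2 CPM in Sham and at 26.1, 28.8 and 27.1 CPM in SNI-NP libraries. All SNI-NP values lay between the lowest and the highest Sham value. Its log2 fold change was 0.041 (SE 0.15), and the 95% interval of the fold was 0.803 to 1.32 (edgeR adjusted p = 0.94).

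**Figure D3:**
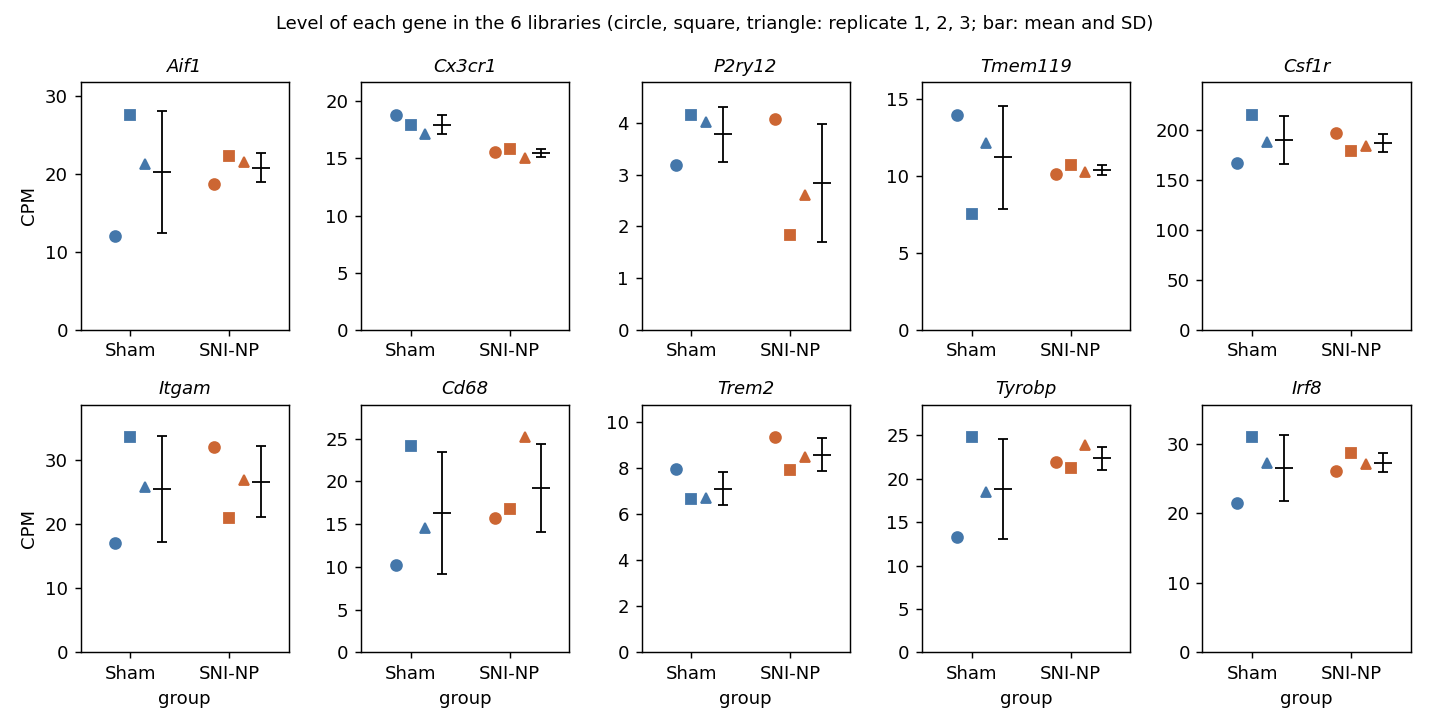
Level in CPM (y axis, starting at 0) of each of the 10 genes in the Sham (blue) and SNI-NP (orange) libraries (x axis), with a circle, square or triangle for replicate 1, 2 or 3 and the mean and SD of each group beside the points. The points of *Cx3cr1* do not overlap between the groups, and for *Aif1*, *Tmem119*, *Csf1r*, *Itgam* and *Irf8* all SNI-NP points lie within the Sham range.

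The spread between Sham libraries was larger than the difference between the groups for most of the 10 genes. For 8 of them the difference of the group means was smaller than the range of the 3 Sham values, as it was for 75.2% of all genes tested, and *Cx3cr1* and *Trem2* were the exceptions. Sham replicate 1 was the lowest and Sham replicate 2 the highest Sham library for the same 7 genes, *Aif1*, *P2ry12*, *Csf1r*, *Itgam*, *Cd68*, *Tyrobp* and *Irf8*. *Tmem119*, *Trem2* and *Cx3cr1* were highest in Sham replicate 1. The highest Sham value was 2.36 times the lowest for *Cd68*, 2.3 times for *Aif1*, 1.97 times for *Itgam*, 1.86 times for *Tyrobp* and 1.87 times for *Tmem119*. It was 1.44 times for *Irf8*, 1.31 times for *P2ry12*, 1.29 times for *Csf1r*, 1.19 times for *Trem2* and 1.1 times for *Cx3cr1*. Summed over the 10 genes, the level was 285, 393 and 335 CPM in Sham and 350, 326 and 345 CPM in SNI-NP libraries, so the Sham libraries were both the lowest and the highest. Most of this sum was *Csf1r*.

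**Figure D4:**
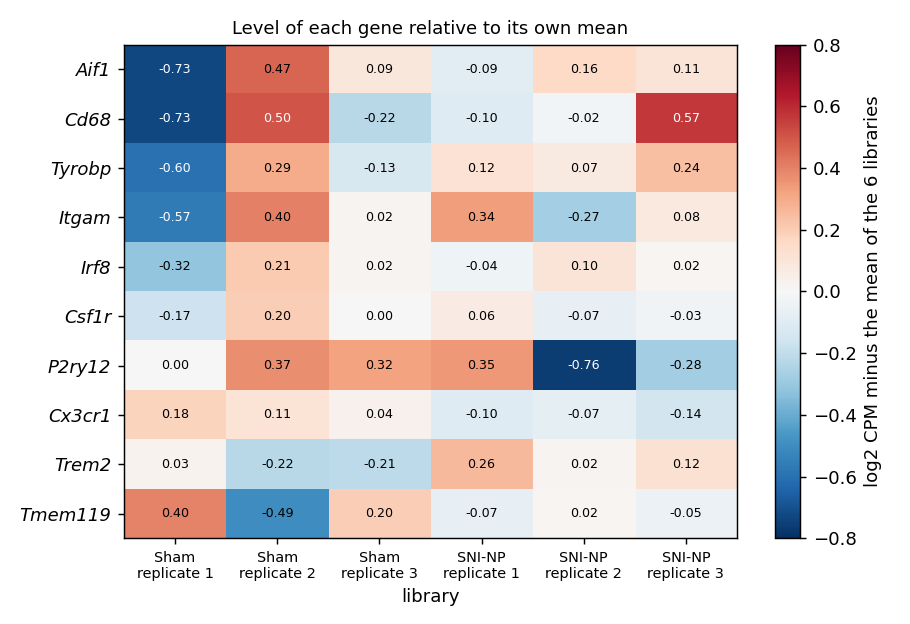
Log2 CPM of each of the 10 genes (y axis) minus its mean over the 6 libraries (x axis), printed in each cell and shown as colour from blue (lower) to red (higher). The Sham replicate 1 column is lowest for *Aif1*, *Cd68*, *Tyrobp*, *Itgam*, *Irf8* and *Csf1r*, while *Tmem119* is highest there and lowest in Sham replicate 2.

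The 10 genes did not follow one common course over the libraries. As a description over the 6 libraries, *Csf1r* and *Irf8* were the closest pair, with a root mean square difference of 0.103 between their centred log2 CPM. *Aif1* and *Tyrobp* came second at 0.165, and *Tmem119* and *Cd68* were farthest apart at 0.684 among the 45 pairs. Within a library, the log2 ratio of *Aif1* to *Tmem119* was -0.22, 1.88 and 0.80 in Sham and 0.89, 1.06 and 1.07 in SNI-NP. The Sham libraries thus differed widely and the SNI-NP libraries little. The log2 ratio of *Cd68*, the lysosomal gene, to *Cx3cr1*, the fractalkine receptor gene, was -0.89, 0.42 and -0.23 in Sham and 0.021, 0.079 and 0.74 in SNI-NP libraries. The groups overlapped in both ratios. Outside the 10 genes, those closest to their mean course were *Supt20h* (0.032), *Upf3a* (0.042), *Mettl6* (0.046), *Rnaset2* (0.048) and *Sh3kbp1* (0.052), again as root mean square differences of log2 CPM over the 6 libraries.

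Other lists of genes place these levels in the tissue. Of 15 other genes of homeostatic microglia, all tested, 1 was higher and 1 lower at an unadjusted p under 0.05 by edgeR (backgrounds over all genes 4.91% and 5.94%), and 0 passed the adjusted threshold. The lower one was *Ctss*, which encodes the lysosomal protease cathepsin S, at 39.9, 43.5 and 46.9 CPM in Sham and 26.0, 32.8 and 36.8 CPM in SNI-NP libraries. Its log2 fold change was -0.45 (SE 0.15; edgeR adjusted p = 0.436). Every SNI-NP library lay below every Sham library, as for 8.15% of all genes tested. The higher one was *Olfml3*, which encodes a secreted matrix protein, at 60.7, 83.7 and 66.5 CPM in Sham and 95.5, 87.0 and 88.2 CPM in SNI-NP libraries. Its log2 fold change was 0.36 (SE 0.14; edgeR adjusted p = 0.44). The groups were without overlap, as for the 10.4% of all genes tested that were higher in this way. The median of the list was -0.028.

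Of 10 other transcription factors of myeloid cells, 0 had an unadjusted edgeR p under 0.05, against 10.8% of all genes tested. Of the 10, 6 had a positive and 4 a negative log2 fold change, with a median of 0.32. *Spi1*, the gene of PU.1, was at 9.545, 14.2 and 14.61 CPM in Sham and 14.95, 16.16 and 15.94 CPM in SNI-NP libraries. It was the 1 gene of this list whose groups did not overlap, as for the 10.4% of all genes tested that were higher in this way. Its log2 fold change was 0.29 (SE 0.19; edgeR adjusted p = 0.567). *Mef2a*, a partner of the microglial enhancer program, was at -0.49, *Cebpa*, a factor of early myeloid cells, at 0.38 and *Maf*, a macrophage factor, at -0.026 on the log2 fold scale. Of 17 tested genes of reactive microglia (of 18 listed; *Tnf* was removed as low), 1 was higher at an unadjusted edgeR p under 0.05, a share near the 4.91% of all genes tested. It was *Axl*, a receptor kinase for apoptotic debris, with a log2 fold change of 0.47 (SE 0.15; edgeR adjusted p = 0.436). Its levels of 141.5, 114.8 and 165.7 CPM in Sham and 176.5, 192.3 and 216.2 CPM in SNI-NP libraries did not overlap, as in the 10.4% of all genes tested that were higher without overlap. The tetraspanin genes *Cd63* and *Cd9* had log2 fold changes of 0.24 and 0.16, and the median of the list was 0.2. Over the 6 libraries *Cd63* averaged 383.5 and *Cd9* 1089.5 FPKM, against 57.5 FPKM for *Csf1r*, the highest of the members. Which cells gave the reads of this list was not tested.

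Each ligand of the member receptors was well above the limit that a count of 0 allows. *Csf1*, a ligand of CSF1R that injured neurons can make, was at 52.4, 57.2 and 60.9 CPM in Sham and 68.8, 67.6 and 65.7 CPM in SNI-NP libraries. The groups did not overlap, as in the 10.4% of all genes tested that were higher without overlap. The log2 fold change of *Csf1* was 0.25 (SE 0.10; edgeR adjusted p = 0.443). *Il34*, the other CSF1R ligand, had a log2 fold change of 0.12 (SE 0.12; edgeR adjusted p = 0.727). *Cx3cl1*, the fractalkine gene of neurons, was at 99.96, 49.24 and 80.03 CPM in Sham and 68.33, 51.59 and 54.78 CPM in SNI-NP libraries, with 1 Sham library below all others. Its log2 fold change was -0.39 (SE 0.25; edgeR adjusted p = 0.569). The ligands of TREM2, *Apoe* and *Clu*, had log2 fold changes of 0.11 and 0.054, and *Icam1*, an adhesion ligand of CD11b, one of 0.23. Of these 6 genes, 1 (*Csf1*) was higher at an unadjusted edgeR p under 0.05, where 4.91% of all genes tested were.

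Of the genes of receptor partners, 0 of 8 tested had an unadjusted edgeR p under 0.05, against 10.8% of all genes (*Hcst* was removed as low). *Itgb2*, the beta chain that pairs with CD11b, was at 17.8, 23.3 and 24.1 CPM in Sham and 26.1, 18.7 and 24.9 CPM in SNI-NP libraries, a log2 fold change of 0.097. The kinase genes *Syk* and *Lyn*, which act next to DAP12 and other myeloid receptors, were at 0.37 and 0.11 on the log2 fold scale, and *Plcg2*, a phospholipase gene downstream of them, at 0.24. The phosphatase genes *Inpp5d* and *Ptpn6*, which oppose that signal, had log2 fold changes of 0.15 each. The genes of the proteases that shed TREM2 and fractalkine, *Adam10* and *Adam17*, were at -0.38 and 0.023.

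Signals that restrain microglia gave 0 of 6 genes at an unadjusted edgeR p under 0.05, against 10.8% of all genes tested. *Cd200*, carried by neurons, had a log2 fold change of 0.0091, and its myeloid receptor gene *Cd200r1* one of -0.41 at levels of 1.22 to 2.76 CPM. *Cd47*, the signal against engulfment, and its receptor gene *Sirpa* had log2 fold changes of -0.048 and 0.049. *Tgfb1*, the cytokine that maintains microglial identity, and its receptor gene *Tgfbr1* were at 0.26 and -0.21.

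Genes of other cells that carry some of the same markers were measured beside the 10. Of 12 genes of border and blood macrophages found in the table (of 13 listed), 11 had a negative log2 fold change, with a median of -0.23. Of all 14426 genes tested, 7085 were negative. At an unadjusted edgeR p under 0.05 there were 0 of the 12 macrophage genes, against 10.8% of all genes tested. Their summed level was 719.9, 1642 and 1041 CPM in Sham and 841, 904 and 932 CPM in SNI-NP libraries, with Sham replicate 1 lowest and Sham replicate 2 highest, in the order seen for 7 of the 10 genes. Most of it was *Lyz2*, a lysozyme gene, with 541.9, 1382 and 878.5 CPM in Sham and 626.9, 762.9 and 744.4 CPM in SNI-NP libraries (log2 fold change -0.39, edgeR adjusted p = 0.638). *F13a1*, a coagulation factor gene of tissue macrophages, was at -0.38 on the same scale. Sums over neuron and astrocyte genes had the opposite order within Sham. The neuron sum was 637, 348 and 574 CPM in Sham and 386, 362 and 344 CPM in SNI-NP libraries, and the astrocyte sum was 1829, 749 and 1343 CPM in Sham and 1267, 928 and 896 CPM in SNI-NP libraries. The part of these cell types in the levels of the 10 genes was not tested.

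Lists of genes of blood cells and their precursors had larger median log2 fold changes. They were chosen with earlier results of these data known, so the counts only describe these lists. All 11 tested genes of neutrophils and their precursors (*Ltf* was removed as low) had a positive log2 fold change, with a median of 1.05. Of all 14426 genes tested, 7341 were positive. At an unadjusted edgeR p under 0.05, 3 of the 11 were higher, against 4.91% of all genes. Their summed level was 53.2, 77.2 and 160.6 CPM in Sham and 245.6, 128.2 and 171.9 CPM in SNI-NP libraries, so the groups overlapped. *Prtn3* and *Mpo*, granule genes of the precursors, had log2 fold changes of 1.21 and 1.52 (edgeR adjusted p = 0.348 and 0.436), and *Ngp*, a granule gene, one of 1.05. All 6 erythroid genes in the table were positive too, with 4 at an unadjusted edgeR p under 0.05 (background 4.91%). Their sum was 1602, 968.6 and 2364 CPM in Sham and 5101, 2633 and 2120 CPM in SNI-NP libraries, so the groups overlapped. *Slc4a1*, the anion exchanger gene of red cells, and *Alas2*, a heme synthesis gene, had log2 fold changes of 1.84 and 1.1. Without SNI-NP replicate 1 these were 1.185 and 0.706. *Hba-a1*, an alpha globin gene, had one of 1. Of 7 tested genes of B and T cells, 3 were higher at an unadjusted edgeR p under 0.05 (background 4.91%). Among them were the B cell receptor genes *Cd79a* and *Cd79b* (1.06 and 1.28). Of the 7 genes, 6 had a positive and 1 a negative log2 fold change, with a median of 0.65. The negative one was *Cd3e*, a T cell gene, at -0.54 (edgeR adjusted p = 0.58). The sums of this list were 8.35 to 19.3 CPM. By edgeR, none of these lists had a gene past the adjusted threshold, whereas DESeq2 gave adjusted p-values of 0.00606 for *Slc4a1* and 0.026 for *Cd79b*.

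**Figure D5:**
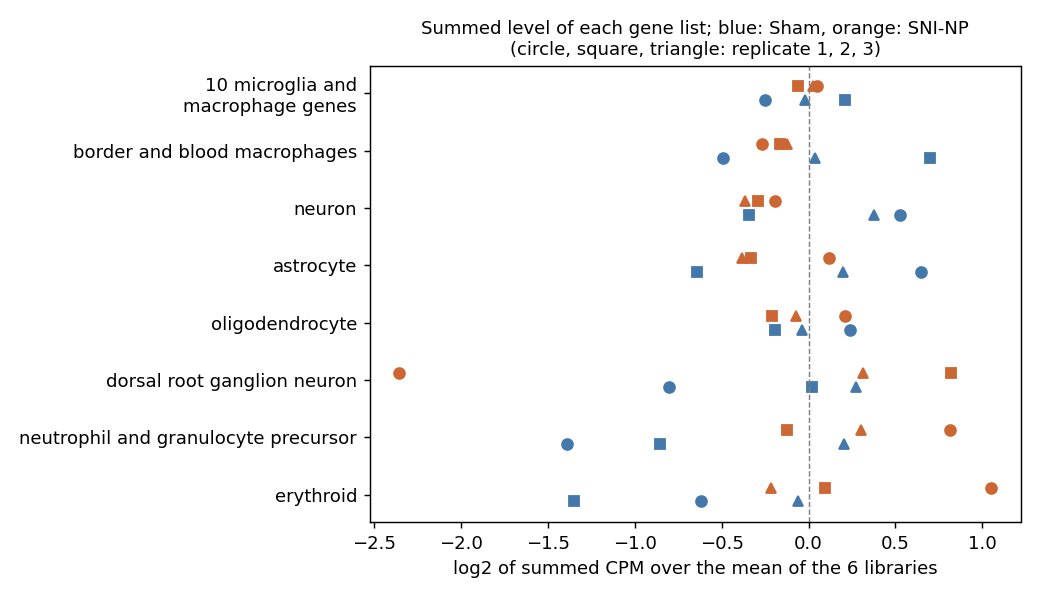
Summed CPM of the 10 genes and of 7 lists of other cell types (y axis), as the log2 of its ratio to the mean of the 6 libraries (x axis), for Sham (blue) and SNI-NP (orange) with a circle, square or triangle for replicate 1, 2 or 3. The sums of the 10 genes span -0.25 to 0.21, with both ends in Sham, and SNI-NP replicate 1 lies far below the others in the dorsal root ganglion genes.

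The remaining cell types gave the following log2 fold changes. *Slc17a6*, a vesicular glutamate transporter gene, and *Snap25* were at -0.77 and -0.65 (edgeR adjusted p = 0.307 and 0.436). The 7 neuron genes were all negative, as were 7085 of the 14426 genes tested. DESeq2 gave *Slc17a6* an adjusted p of 0.00565, past the threshold. *Slc1a2*, the main astrocyte glutamate transporter gene, was at -1.08 (edgeR adjusted p = 0.436), *Aqp4*, a water channel gene, at -0.69 and *Gfap* at -0.2. The myelin genes *Mobp* and *Mbp* were at -0.77 (-0.25 without Sham replicate 1) and 0.02, and the endothelial genes *Flt1*, *Cdh5* and *Cldn5* at -0.24 (-0.027 with offsets for transcript length), 0.3 and 0.17. Of the genes of dorsal root ganglion neurons, *Prph*, a filament gene, was at 0.4 (SE 0.54; edgeR adjusted p = 0.797). *P2rx3*, an ATP receptor gene, was at 0.29 (SE 0.77; edgeR adjusted p = 0.91). SNI-NP replicate 1 was the lowest library for both, at 130.1 and 19.21 CPM, while the other SNI-NP libraries were at 722.4 and 477.5 CPM for *Prph* and 251.6 and 179.1 CPM for *P2rx3*. Of 8 genes of cell division, 5 had a positive and 3 a negative log2 fold change. At an unadjusted edgeR p under 0.05, 2 were higher (background 4.91%), the mitotic kinase genes *Aurkb* (1.5) and *Cdk1* (0.91). Their edgeR adjusted p-values were 0.307 and 0.436, while DESeq2 gave *Aurkb* an adjusted p of 0.00437. *Mki67*, the marker most used for dividing cells, was at -0.16.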

How the data were processed

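RNA-seq was performed on spinal cord of Sham and SNI-NP rats, with 3 libraries in each group by the sample labels. The study's methods state that reads were mapped to the Rat6 genome and that unique sequences were kept, and the submitters' processing notes name FastQC, STAR and HTSeq without versions. For each of 22050 genes the authors deposited an estimated count, not normalized, and an FPKM value, scaled by transcript length and library total. Between 5.97% and 6.29% of the deposited counts of a library were not whole, none of them in the 10 genes, and all were rounded.

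Counts were tested in R (version 4.3.3) with the quasi-likelihood method of edgeR (version 4.0.16) after filterByExpr and TMM, with a model of condition alone and Benjamini-Hochberg adjustment over 14426 genes. Tests were two-sided, and the common biological coefficient of variation was 0.223. The paper names DESeq2 for this comparison. DESeq2 version 1.42.0, RLE and upper-quartile factors, no filter, a minimum of 10 counts in every library, a replicate block, offsets for transcript length (loess, span 0.5) alone or with that block, limma version 3.58.1 on log2(FPKM + 0.1), and leaving out each library were the alternatives. The test was also run on simulated counts with 200 changed genes, drawn independently for each gene and library. Those counts hold no shared shift in cell composition between libraries, so the test was not checked for such shifts.

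Library totals were 16670760 to 18151156 counts, at which 3 counts, the limit that a count of 0 allows, equal 0.165 to 0.18 CPM (counting error only). The members, the gene lists and the promoter motifs were chosen with earlier results of these data known. Named were all members, all tested ligands, partners and restraint genes, the 2 genes with the smallest p and the highest by CPM of each other list, and the 5 genes closest in course to the members. *Med12l*, *Cd3e* and *Spi1* were named after their values were seen. *Med12l* overlaps a member, *Cd3e* was the negative gene of its list and *Spi1* encodes PU.1. *Ccr2* and *Pecam1*, listed markers, had no row by symbol, and some listed genes are not reported here. Promoters were taken from RefSeq (GRCr8).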

Additional observations from a re-analysis of the deposited data

How the results depend on the processing

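No alternative brought a member past the adjusted threshold. Of 150 fold changes of members under the alternatives, 137 kept their direction and 13 reversed. The number of genes called was 0 by edgeR, 210 by DESeq2 and 2 by limma on FPKM, and from 0 to 222 with each library left out, 222 when SNI-NP replicate 1 and 2 when Sham replicate 2 was omitted. Genes at an unadjusted p under 0.05 numbered 1565 by edgeR, and from 908 without Sham replicate 1 to 2134 without Sham replicate 2, 1019 when Sham replicate 3 and 917 when SNI-NP replicate 3 was omitted. Members at an unadjusted p under 0.05 numbered 0 by edgeR and 1 by limma on FPKM (*Cx3cr1*, log2 fold change -0.26), and from 0 to 1 with each library left out (*Tyrobp* when Sham replicate 2 was omitted, *P2ry12* when SNI-NP replicate 1 was). The median log2 fold change of the members ran from -0.12 without Sham replicate 1 to 0.2 without Sham replicate 2.

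With the replicate number as a block, edgeR called 0 genes, and the median of the members was 0.074 (0.11 with length offsets as well) against 0.039 without it. The numbers share no stated litter, day or batch, and deviations of same-numbered libraries correlated at 0.214, -0.143 and 0.0538 across genes, so they were not treated as pairs. The block changed no call of a member, and gave 1319 genes at an unadjusted p under 0.05. *Csf1r* turned to 0.043 with length offsets and 0.052 with offsets and block, while *Adam17*, *Cd200* and *Clu* turned to -0.024, -0.032 and -0.012 on FPKM. The cause was not tested. By DESeq2, the named genes *Aurkb*, *Cd79b*, *Slc17a6* and *Slc4a1* passed the adjusted threshold.

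With each library left out, log2 fold changes that crossed 0 ranged from -0.25 to 0.33 for *Aif1*, -0.047 to 0.64 for *Cd68*, -0.13 to 0.076 for *Csf1r*, -0.11 to 0.17 for *Irf8*, -0.18 to 0.32 for *Itgam* and -0.33 to 0.067 for *Tmem119*. Outside the members they ranged from -0.061 to 0.13 for *Adam17*, -0.10 to 0.26 for *Apoe*, -0.046 to 0.048 for *Cd200*, -0.14 to 0.021 for *Cd47*, -0.086 to 0.21 for *Clu*, -0.011 to 0.29 for *Inpp5d*, -0.047 to 0.23 for *Itgb2*, -0.051 to 0.24 for *Lyn*, -0.69 to 0.009 for *Lyz2*, -0.025 to 0.29 for *Ptpn6* and -0.031 to 0.14 for *Sirpa*.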
